A study of Mus musculus with 137 samples.

Results

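Zinc finger proteins of the C2H2 type hold DNA or RNA with short loops folded around a zinc ion, and the mouse genome carries a great many of them, often named Zfp and a number. A large share also carries a KRAB box, a stretch that binds TRIM28 (KAP1), which brings the histone methyltransferase SETDB1 and other silencing factors to the bound DNA. Many KRAB zinc finger proteins bind retroelements or imprinted regions, and their genes sit in clusters of near copies. Other Zfp genes encode transcription factors, chromatin proteins and proteins of RNA and ribosome metabolism.

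The genes described here are 226 of 372 genes whose symbol is Zfp followed only by a number. The 3 genes Zfp352, Zfp42 and Zfp57 had been set aside before that count. The genes were selected on their level, a mean of at least 5 CPM (counts per 1000000 counts of a library) over all libraries, so levels are given as a description. Just inside the limit were Zfp989 with 5.04, Zfp689 with 5.04 and Zfp612 with 5.04 CPM, and just outside it Zfp575 with 4.97, Zfp334 with 4.94 and Zfp987 with 4.93 CPM. By group mean, 153 genes reached 5 CPM in all 3 groups, 44 in 2 groups, 25 in 1 group and 4 in none. All 226 passed the filter on low counts in the fit, out of 15097 genes tested. A gene that reached the limit through 1 group alone had to differ between groups, so counts over the 226 genes are descriptions beside the same counts over all genes.

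The libraries are single embryos of the B6129F1 mouse cross at the 2-cell stage, whose polyadenylated RNA was read by the SmartSeq2 protocol. The zygotes had been isolated 5 hours after fertilization. The group SR1848_NR5A2OE received NR5A2 mRNA at 500 ng/µl and SR1848 at 10 µM, a compound that inhibits NR5A2, an orphan nuclear receptor. The group SR1848 received 10 µM SR1848, and the group DMSO received its solvent at 0.1%. Both were added at 6 hours to KSOM medium without oil cover. No embryos injected without NR5A2 mRNA are among the samples used here, so injection and NR5A2 cannot be told apart. By its title, the study is about NR5A2 and how the zygotic genome is activated. The labels give 67 SR1848_NR5A2OE, 41 SR1848 and 29 DMSO libraries in 2 experiments, and each library is 1 embryo. They do not record which embryos shared parents or handling, so p-values measure the spread between embryos.

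The count columns name the DMSO group outright. The prefixes of the other columns are not spelled out in the labels and were matched to the groups by their number of embryos in each experiment, so those groups are inferred. Numbers 1 to 8 of experiment 2 labelled SR1848_NR5A2OE or DMSO, 16 libraries, were left out together. Those labelled SR1848_NR5A2OE had a median of 108 CPM of Nr5a2 and those labelled DMSO 2260 CPM, against their labels. The exception was the library labelled DMSO 4, whose Nr5a2 of 88.3 CPM lay within the range of the other DMSO libraries and whose GFP was 47.4 CPM. Another 7 libraries had a low total or few genes. Tests used the other 114 libraries: 56 SR1848_NR5A2OE (26 and 30 by experiment), 40 SR1848 (16 and 24) and 18 DMSO (16 and 2). Their totals ran from 3383462 to 9317721 counts. Median Nr5a2 was 2523 and 3176 CPM in SR1848_NR5A2OE embryos of experiments 1 and 2, 12.6 and 17.3 CPM in SR1848 embryos, and 115 and 94.0 CPM in DMSO embryos. In 14 of the 56 injected embryos, GFP was under 100 CPM. Nr5a2 ran from 5.37 to 97.0 CPM in these 14 embryos and was at least 1691 CPM in the other injected embryos. SR1848_NR5A2OE embryo 2 of experiment 1 stood apart, with 8316 genes detected, no GFP and 8.39 CPM of Nr5a2.

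The summed counts of 11 cumulus and granulosa markers had a median of 27.3 CPM (range 1.53 to 77.5) in SR1848_NR5A2OE embryos, 15.9 CPM (0.922 to 57.5) in SR1848 embryos and 92.7 CPM (40.8 to 148) in DMSO embryos. Amh was at 0 in SR1848_NR5A2OE embryos, Amh and Ptx3 in SR1848 embryos and Fshr and Ptx3 in DMSO embryos. Summed oocyte markers had medians of 1178, 1245 and 790 CPM in SR1848_NR5A2OE, SR1848 and DMSO embryos. Summed 2-cell markers had medians of 846, 382 and 1014 CPM in the same order, 7 sperm markers 6.46, 6.13 and 1.13 CPM, and 5 blood markers 186, 27.1 and 15.2 CPM. Tnp1 was at 0 in SR1848 embryos and Tnp1 and Tnp2 in DMSO embryos, while Hbb-bs and Hbb-bt were at 0 in SR1848_NR5A2OE and SR1848 embryos. The part of these differences in the results was not tested. Fewer cells of a type and less RNA per cell cannot be told apart in such libraries.

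Together the 226 Zfp genes held about 1 count in 100 of an embryo's library. Their share had a median of 1.16% (range 0.921% to 2.06%) in SR1848_NR5A2OE embryos, 1.14% (0.739% to 1.30%) in SR1848 embryos and 1.42% (1.27% to 1.55%) in DMSO embryos. The highest share belonged to SR1848_NR5A2OE embryo 2 of experiment 1. Without Zfp706, Zfp68, Zfp131 and Zfp655, 4 abundant genes, the share was 0.763% (0.630% to 1.80%) in SR1848_NR5A2OE embryos, 0.815% (0.510% to 1.02%) in SR1848 embryos and 1.25% (1.11% to 1.39%) in DMSO embryos, and no SR1848 embryo reached the lowest DMSO embryo. The median embryo had counts for 216, 215 and 222 of the genes in SR1848_NR5A2OE, SR1848 and DMSO embryos. Embryos differed most among themselves in the injected group: the median over genes of the SD of log2(CPM + 1) was 0.98 in SR1848_NR5A2OE, 0.77 in SR1848 and 0.67 in DMSO embryos.

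Levels between genes were compared per length, as transcript counts over transcript length scaled to 1000000 per embryo. Zfp706, which encodes a small protein with 1 finger pattern that is linked in mouse embryonic stem cells to the exit from self-renewal, and Zfp131, which encodes a BTB-domain transcription regulator, led on this scale. Zfp706 had a median of 1636 (range 388 to 2663) in SR1848_NR5A2OE embryos, 1328 (863 to 1985) in SR1848 embryos and 825 (518 to 1477) in DMSO embryos. Zfp131 had 2127 (109 to 5624), 539 (229 to 1235) and 405 (227 to 578) on the same scale and in the same order of groups. The ranges of all 3 groups overlapped for both genes. Among genes whose transcripts had a length, next in the mean over groups came Zfp68, Zfp982, Zfp970, Zfp655, Zfp979, Zfp296, Zfp410 and Zfp932. Zfp967, with medians of 274, 255.7 and 95.4 CPM in SR1848_NR5A2OE, SR1848 and DMSO embryos, and Zfp869 could not be ranked, since most of their counts fell on transcripts with no length here. Of the ranked genes, Zfp296 had rank 3 in DMSO embryos, with 393 (324 to 652), and rank 37 in both other groups, with 36.0 (0 to 402) in SR1848_NR5A2OE and 44.8 (22.5 to 465) in SR1848 embryos. Zfp296 is a zinc finger protein of pluripotent cells that associates with the NuRD complex.

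**Figure D1:**
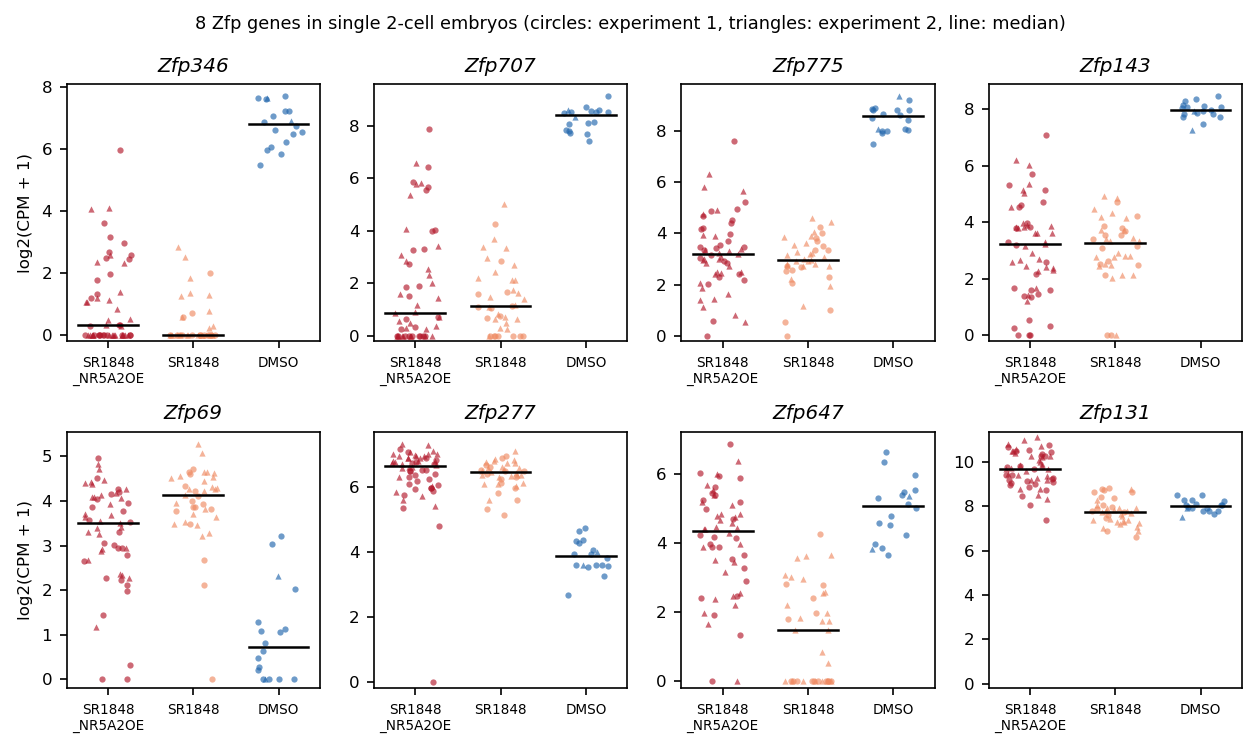
Levels of 8 Zfp genes in each of 114 embryos, as log2(CPM + 1) on the vertical axis, by group; circles are experiment 1, triangles experiment 2 and lines medians. Zfp346, Zfp707, Zfp775 and Zfp143 of all 40 SR1848 embryos lie below all 18 DMSO embryos, Zfp277 lies above them, and Zfp647 and Zfp131 have higher medians in SR1848_NR5A2OE than in SR1848 embryos.

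The first comparison asks how the genes differ when NR5A2 is inhibited. With SR1848 against DMSO, 108 of the 226 Zfp genes fell and 74 rose (edgeR quasi-likelihood test, Benjamini-Hochberg adjusted p under 0.05 over all genes). Of all 15097 genes, 39.0% fell and 37.7% rose. The median log2 fold change was −0.44 over the Zfp genes and −0.02 over all genes. All 40 SR1848 embryos lay below all 18 DMSO embryos for 36 Zfp genes (15.9%), against 13.0% of all genes, and above them for 4 (1.77%), against 4.81%. Those 4 were Zfp932, Zfp957, Zfp277 and Zfp541, a set named after its values were seen.

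The split depended on how libraries were scaled. Relative log expression moved the median of all genes to −0.55 and gave 48 Zfp genes higher and 126 lower. Scaling to maternal transcripts moved it to −1.33 and gave 20 higher and 166 lower, and 15 of the 74 genes that rose were then called lower. Total counts gave a median of −0.13 over all genes. The median of the Zfp genes minus that of all genes was −0.41 with TMM, −0.45 with relative log expression, −0.42 with total counts and −0.50 with maternal scaling. All 108 genes that fell also fell under each of these 3 other scalings. With all libraries as labelled, 64 rose and 92 fell, and with the 7 low libraries kept, 77 rose and 87 fell.

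**Figure D2:**
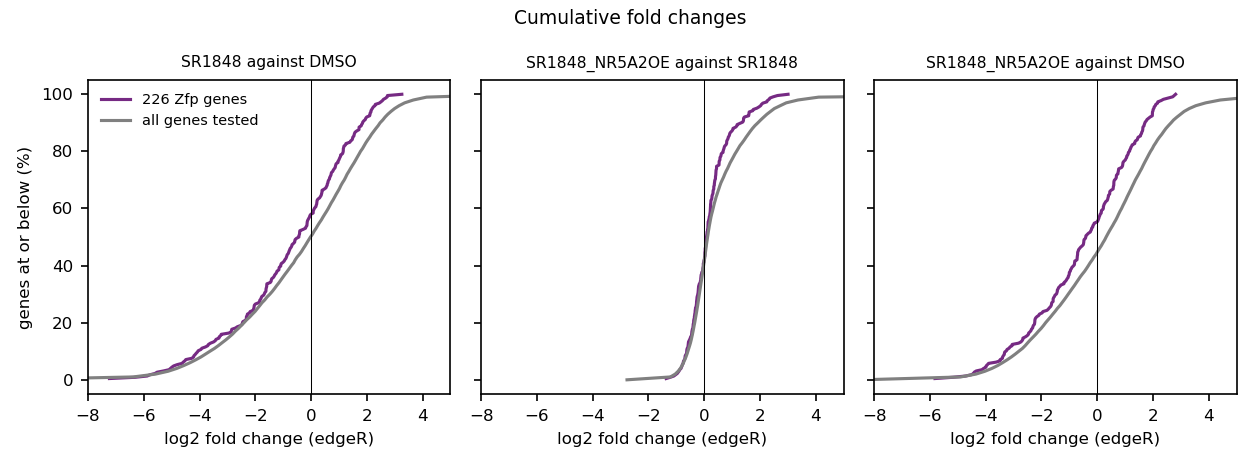
Cumulative distributions of log2 fold changes (edgeR, horizontal axis) of the 226 Zfp genes and of all 15097 genes tested, for the 3 comparisons; the vertical axis is the percent of genes at or below a value. For SR1848 against DMSO the Zfp curve crosses 50% at −0.44 and that of all genes at −0.02 with TMM scaling.

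The largest falls left several genes near the floor of detection. Of the 10 largest, 7 reached a mean of 5 CPM in DMSO embryos alone (Zfp346, Zfp977, Zfp949, Zfp617, Zfp599, Zfp668 and Zfp871), so the selection built in their direction and their values are a description. The 153 genes with a mean of 5 CPM in every group, a limit that also removes genes that fell, had a median log2 fold change of −0.08, with 65 lower and 56 higher. Zfp346 (chromosome 13, 55105311 to 55134825, GRCm38), which encodes a protein that binds double-stranded RNA, had a median of 0 CPM (range 0 to 6.22) in SR1848 embryos and 110 CPM (44.0 to 207) in DMSO embryos. It had no count in 27 of 40 SR1848 embryos and in none of the 18 DMSO embryos, and its log2 fold change was −7.23 (SE 0.70). The groups did not overlap.

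Zfp707 (chromosome 15, 75969123 to 75975868), a KRAB gene, had a median of 1.18 CPM (0 to 31.5) in SR1848 embryos and 339 CPM (169 to 552) in DMSO embryos, a log2 fold change of −6.31 (SE 0.73). Zfp775 had 6.83 CPM (0 to 23.6) in SR1848 embryos and 378 CPM (181 to 650) in DMSO embryos, a log2 fold change of −5.29 (SE 0.39, adjusted p 4.3e-24, edgeR). Neither gene's groups overlapped. The other genes among the 10 largest falls were Zfp239, Zfp977, Zfp949, Zfp617, Zfp599, Zfp668 and Zfp871, with log2 fold changes from −5.88 to −4.99. Of these 7, Zfp239 and Zfp871 had overlapping groups.

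The largest rises were smaller than the largest falls. Zfp69 (chromosome 4, 120930137 to 120951699), a KRAB gene, had a median of 16.5 CPM (0 to 38.1) in SR1848 embryos and 0.664 CPM (0 to 8.27) in DMSO embryos, a log2 fold change of 3.26 (SE 0.46). Zfp541, known in male meiosis, had 49.9 CPM (20.9 to 113) in SR1848 embryos and 9.53 CPM (1.17 to 17.6) in DMSO embryos, a log2 fold change of 2.74 (SE 0.27). Zfp277 (chromosome 12, 40315046 to 40445902), which encodes a protein that associates with Polycomb, had 86.0 CPM (34.3 to 136.7) in SR1848 embryos and 13.6 CPM (5.35 to 25.4) in DMSO embryos, a log2 fold change of 2.51 (SE 0.22). Groups overlapped for Zfp69 and did not for Zfp541 and Zfp277. Zfp963, Zfp109, Zfp750, Zfp111, Zfp41, Zfp521 and Zfp940 completed the 10, with log2 fold changes from 2.29 to 2.73. All 10 stayed positive under the 3 other scalings, with values from 0.97 to 1.92 when scaled to maternal transcripts.

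Of 9 genes with roles in RNA and ribosome metabolism that reached the limit, 6 fell and 2 rose, where 39.0% of all genes fell and 37.7% rose. No test was made of this or the other lists. Beside Zfp346, Zfp622, whose product matures the large ribosomal subunit, had a median of 2.33 CPM (0 to 23.2) in SR1848 embryos and 97.3 CPM (41.2 to 238) in DMSO embryos (log2 fold change −4.93, SE 0.58). Zfp207, which encodes a spindle and kinetochore protein that binds BUB3, had 67.7 CPM (7.59 to 219) in SR1848 embryos and 284 CPM (150 to 482) in DMSO embryos (log2 fold change −2.05, SE 0.21). The groups of Zfp207 overlapped and those of Zfp622 did not. Zfp330, a nucleolar protein gene, fell by 1.62 on the log2 scale (SE 0.22), Zfp638, an RNA-binding silencer of retroviral DNA, by 1.43 (SE 0.18) and Zfp830, a spliceosome protein gene needed by mouse preimplantation embryos, by 1.32 (SE 0.14). The 2 that rose were Zfp473, a histone mRNA processing factor gene, with a log2 fold change of 2.23 (SE 0.28), and Zfp598, a ubiquitin ligase gene for collided ribosomes, with 0.80 (SE 0.17) that turned to −0.55 with maternal scaling. Zfp106, an RNA-binding protein gene, had −0.04 (SE 0.13, adjusted p 0.785, edgeR).

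Among 14 genes listed for transcription and chromatin, 8 fell and 2 rose, where 39.0% of all genes fell and 37.7% rose. Zfp143 (chromosome 7, 110061217 to 110095394), an activator of many promoters, had a median of 8.55 CPM (0 to 29.2) in SR1848 embryos and 247 CPM (154 to 348) in DMSO embryos, a log2 fold change of −4.58 (SE 0.44). Zfp410, known as an activator of Chd4, had 56.2 CPM (23.2 to 120) in SR1848 embryos and 311 CPM (204 to 436) in DMSO embryos, a log2 fold change of −2.47 (SE 0.19). Zfp281, a transcription factor of pluripotent cells, had 39.7 CPM (17.2 to 73.9) in SR1848 embryos and 156 CPM (82.1 to 265) in DMSO embryos, a log2 fold change of −1.88 (SE 0.16). None of these 3 had overlapping groups.

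Falls on that list also took in Zfp335 (log2 fold change −2.87, SE 0.28), Zfp296 (−2.32, SE 0.39), the G9a partner gene Zfp644 (−1.66, SE 0.19), Zfp217 (−1.62, SE 0.46) and Zfp148 (−0.63, SE 0.15). Zfp592 rose, with 354 CPM (181 to 573) in SR1848 embryos and 143 CPM (101 to 193) in DMSO embryos (log2 fold change 1.49, SE 0.10). Its partner in a ZMYND8 complex, Zfp687, did not pass the test, at 0.58 (SE 0.28, adjusted p 0.0504, edgeR). Zfp451, a SUMO ligase gene, rose by 0.73 (SE 0.23) with TMM scaling and stood at −0.66 with maternal scaling. In experiment 1 alone its log2 fold change was 0.55 and was not called. Zfp609, Zfp131 and Zfp703 did not pass, with log2 fold changes of 0.40, −0.05 and 0.25.

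Of 7 genes listed for retroelements and imprints, 4 fell and 2 rose, where 39.0% of all genes fell and 37.7% rose. Zfp809, which silences murine leukaemia virus through its primer binding site, had a median of 10.5 CPM (1.32 to 63.4) in SR1848 embryos and 50.6 CPM (23.6 to 97.7) in DMSO embryos (log2 fold change −2.18, SE 0.43). Zfp568, a repressor of a placental Igf2 promoter, had 34.7 CPM (12.5 to 80.5) in SR1848 embryos and 129 CPM (74.7 to 230) in DMSO embryos (−1.79, SE 0.18). Zfp961 fell by 1.08 (SE 0.17) and Zfp445, which keeps imprints together with ZFP57, by 0.75 (SE 0.20). All 4 had overlapping groups. With all libraries as labelled, 6 of the 9 RNA and ribosome genes, 8 of the 14 transcription and chromatin genes and 3 of these 7 fell. Of all genes, 5216 of 14499 then fell.

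Zfp932, a repressor of endogenous retroviruses, rose instead. It had 190 CPM (122 to 308) in SR1848 embryos and 53.0 CPM (24.2 to 101) in DMSO embryos, with no overlap and a log2 fold change of 1.84 (SE 0.18), and it shares 48.2% of its 31-base words with other genes. Zfp708 rose by 1.16 (SE 0.29) with TMM scaling and stood at −0.25 with maternal scaling, and 95.6% of its 31-base words occur in other genes, so its count is uncertain. Zfp819 did not pass the test (−0.78, SE 0.43, adjusted p 0.0872, edgeR).

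No KRAB box was found in 85 of the genes, 4 had no coding transcript to read, and the rest carried a box. Genes with a box carried a median of 12 finger patterns and those without it 7. With SR1848 against DMSO, 39.0% of all genes fell and 37.7% rose, with a median log2 fold change of −0.02. Of the KRAB genes, 68 fell, 47 rose and 22 did not pass the test, with a median of −0.68. Of the 85 genes without a box 36 fell and 27 rose, with a median of −0.10. The corresponding medians were −1.20 and −0.66 with relative log expression, beside −0.55 for all genes, and −1.96 and −1.43 with maternal scaling, beside −1.33. With low libraries kept they were −0.30 and 0.11, beside 0.35 for all genes, and with all libraries as labelled −0.29 and −0.13, beside −0.05. The 46 genes with up to 5 finger patterns had a median of 0.07, the 103 with 6 to 12 had −0.52 and the 73 with more had −0.68, on the TMM scale. These sets include genes that reached 5 CPM in DMSO embryos alone, such as Zfp977 and Zfp346, whose direction the selection built in.

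Genes that work with KRAB zinc fingers were looked up from a list of 25, of which 12 fell and 8 rose with SR1848 (median log2 fold change −0.57). Of all genes, 39.0% fell and 37.7% rose (median −0.02). Trim28 had a median of 10.2 CPM (0.378 to 53.1) in SR1848 embryos and 149 CPM (87.4 to 253) in DMSO embryos, with no overlap and a log2 fold change of −3.14 (SE 0.37). Cbx3, an HP1 protein gene, fell by 3.99 (SE 0.29) and the deacetylase gene Hdac1 by 3.67 (SE 0.24). Setdb1 rose by 0.62 (SE 0.18) with TMM scaling and stood at −0.78 with maternal scaling.

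Zfp genes lying within 500 kb of the next one and holding at least 5 of the 226 genes formed 9 clusters, which together held 81 of them. Neighbours did not all move one way. With SR1848, 39.0% of all genes fell and 37.7% rose. The clusters include genes that reached 5 CPM in DMSO embryos alone, among them Zfp977 and Zfp871, so the selection built in their direction. In the cluster at chr7:42473386-43618285, 6 of 8 genes fell with SR1848 and none rose, with a median log2 fold change of −2.35 and Zfp977 lowest at −5.77. In the one at chr7:24081924-25227507, 5 of 7 rose and 2 fell, with a median of 1.95. There Zfp109, Zfp111, Zfp94, Zfp108 and Zfp235 rose by 1.16 to 2.68 with TMM scaling, of which Zfp235 stood at −0.21 with maternal scaling, and Zfp180 and Zfp574 fell by 2.52 and 2.07.

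In the largest cluster, at chr4:145510759-147848366, 7 of 16 genes rose and 5 fell (median 0.08). Its genes shared a median of 74.1% of their 31-base words with other genes, so the division of counts among them is uncertain. In a cluster at chr17:32765496-33631779, 4 of 7 genes fell and 1 rose with SR1848. The clusters were not tested against each other.

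**Figure D3:**
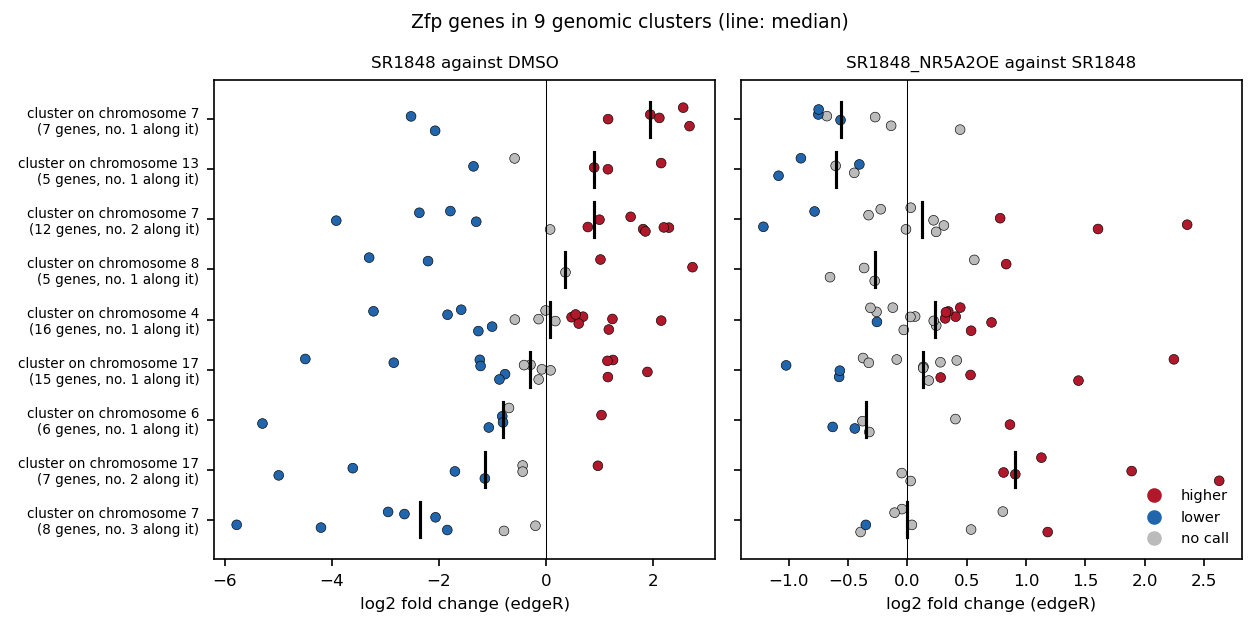
Log2 fold changes (edgeR, horizontal axis) of the genes in 9 clusters, for SR1848 against DMSO on the left and SR1848_NR5A2OE against SR1848 on the right; each point is a gene, red if higher, blue if lower and grey if it did not pass the test, and lines are medians. The last of the clusters along chromosome 7 has a median of −2.35 with SR1848 and the first a median of 1.95, both with TMM scaling. The former includes Zfp977, which reached a mean of 5 CPM in DMSO embryos alone.

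The second comparison asks how the genes differ when NR5A2 mRNA is added to SR1848. With SR1848_NR5A2OE against SR1848, 59 of the 226 Zfp genes rose and 36 fell, while 29.8% of all genes rose and 14.8% fell (edgeR). The median log2 fold change was 0.09 over the Zfp genes and 0.12 over all genes. Relative log expression gave 73 higher and 24 lower, and maternal scaling 112 higher and 6 lower, with all-gene medians of 0.24 and 0.54. The 14 injected embryos with little GFP had at most 97.0 CPM of Nr5a2. When they were left out, the split turned to 46 higher and 60 lower, and 41 of the 59 genes were still called higher. Without SR1848_NR5A2OE embryo 2 of experiment 1 it was 52 higher and 44 lower. With the 7 low libraries kept, 34 rose and 30 fell.

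Zfp647 (chromosome 15, 76910371 to 76925448), a KRAB gene, rose most. It had a median of 19.2 CPM (0 to 115) in SR1848_NR5A2OE embryos, 1.79 CPM (0 to 18.1) in SR1848 embryos and 32.3 CPM (11.5 to 98.3) in DMSO embryos. Its log2 fold change was 3.01 (SE 0.41), and 53 of 56 injected embryos lay above the SR1848 median. The groups overlapped.

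Zfp710 had a median of 5.84 CPM (0.268 to 25.7) in SR1848_NR5A2OE embryos, 1.08 CPM (0 to 5.88) in SR1848 embryos and 11.4 CPM (7.26 to 27.2) in DMSO embryos (log2 fold change 2.33, SE 0.24). Zfp773 had 23.1 CPM (0 to 105), 4.58 CPM (0.568 to 27.6) and 13.3 CPM (8.41 to 46.5) in the same order (2.27, SE 0.27). Zfp30, Zfp287, Zfp239 and Zfp871, which rose by 2.36, 2.11, 2.48 and 2.63, all overlapped too. Zfp239 and Zfp871 stayed far below DMSO embryos, with medians of 3.83 and 0.344 CPM in SR1848_NR5A2OE embryos and 55.6 and 15.8 CPM in DMSO embryos.

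Rises of Zfp54, Zfp346, Zfp622, Zfp707 and Zfp775 were not called without the injected embryos with little GFP. Zfp54 had a log2 fold change of 2.25 (SE 0.63, adjusted p 0.00193, edgeR) over all 56 injected embryos and 0.51 (adjusted p 0.561, edgeR) over the 42 with GFP. For Zfp346 the log2 fold changes were 2.06 and 0.72, and for Zfp622 they were 1.60 and 0.52. Zfp707 had 1.97 over all 56 and −0.14 over the 42, and Zfp775 had 0.86 and −0.10.

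Falls with NR5A2 mRNA were modest. Zfp451 had a median of 64.1 CPM (12.7 to 166) in SR1848_NR5A2OE embryos, 183 CPM (37.5 to 363) in SR1848 embryos and 105 CPM (57.2 to 226) in DMSO embryos, and all 56 injected embryos lay below the SR1848 median. Its log2 fold change was −1.36 (SE 0.16, adjusted p 8.84e-13, edgeR). Levels of its main transcript differed by embryo number, as described further on. The 14 injected embryos with little GFP had 9.48 to 104 CPM of it (ENSMUST00000019861), against a median of 177 CPM in SR1848 embryos. Whether the fall of Zfp451 follows the NR5A2 mRNA was not tested. Zfp655, a KRAB gene, had 355 CPM (170 to 727) in SR1848_NR5A2OE, 714 CPM (212 to 1107) in SR1848 and 505 CPM (339 to 781) in DMSO embryos (−0.87, SE 0.09). Groups overlapped for both. The other genes among the 10 largest falls were Zfp383, Zfp708, Zfp947, Zfp750, Zfp276, Zfp640, Zfp808 and Zfp82, with log2 fold changes from −1.21 to −0.78, and all 10 stayed negative with maternal scaling.

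Of the 9 RNA and ribosome genes, 5 fell with NR5A2 mRNA and 3, Zfp346, Zfp622 and Zfp106, rose. Zfp207 fell by 0.69 (SE 0.15), Zfp330 by 0.62 (SE 0.16), Zfp638 by 0.52 (SE 0.13), Zfp598 by 0.44 (SE 0.12) and Zfp830 by 0.31 (SE 0.10). Of these, Zfp830 stood at 0.16 with maternal scaling. Of the 14 transcription and chromatin genes, Zfp131, Zfp410 and Zfp217 rose and Zfp451, Zfp592 and Zfp687 fell. Zfp217 rose by 0.81 (SE 0.33, adjusted p 0.0408, edgeR) and stood at −0.47 over injected embryos with GFP. Of the 7 retroelement and imprint genes, Zfp961 rose by 0.38 (SE 0.12) and Zfp708 fell by 1.09 (SE 0.19). In the chr17:32765496-33631779 cluster, 5 of 7 genes rose and none fell, and in chr13:66669928-67827002 and chr7:24081924-25227507 3 genes each fell and none rose, where 29.8% of all genes rose and 14.8% fell. Among the KRAB partner genes, 4 of 25 rose and 13 fell with TMM scaling, against 8 and 6 with maternal scaling. Trim28 stood at 1.18 (SE 0.28) and Setdb1 at −1.47 (SE 0.12).

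KRAB genes numbered 39 higher, 19 lower and 79 without a call with NR5A2 mRNA (median 0.13), and genes without a box 19 higher and 16 lower of 85 (median 0.07). Of all genes, 29.8% were higher and 14.8% lower (median 0.12). Over injected embryos with GFP alone the counts were 28 higher and 33 lower with a box, and 17 higher and 25 lower without one. All genes then numbered 3588 higher and 2659 lower of 14711. In the authors' deposited table of the same contrast, per transcript, 93 of 829 transcripts of these genes with an adjusted p-value were called up and 86 down. Its header does not state a direction, and Nr5a2 and GFP entries are positive in it. Some called transcripts in it have log2 fold changes near 0, such as −2.9e-05 for that of Zfp35. Of 53 genes with transcripts up and none down in the authors' deposited table, 37 were called higher and 0 lower here. Both come from the same series, so they are not independent, and which libraries the authors used is not known here. Of the 53 with transcripts down and none up in that authors' deposited table, 28 were called lower and 0 higher.

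The sum over a gene's transcripts hid opposite parts in some genes. Zfp131 (chromosome 13, 119765187 to 119790889) is an example, though the share of a transcript shifted more between SR1848 and DMSO in Zfp934 and Zfp451. Its gene level had a median of 827 CPM (164 to 2248) in SR1848_NR5A2OE embryos, 216 CPM (97.8 to 448) in SR1848 embryos and 254 CPM (182 to 361) in DMSO embryos. The log2 fold change was 2.03 (SE 0.14, adjusted p 9.91e-24, edgeR) with NR5A2 mRNA and −0.05 (SE 0.19) with SR1848. One coding transcript of 663 bases, ENSMUST00000223812, held a median of 98.4% of the gene's estimated counts in SR1848_NR5A2OE embryos, 88% in SR1848 embryos and 48.7% in DMSO embryos. That transcript had 804 CPM (2.51 to 2227), 195 CPM (72.2 to 424) and 118 CPM (45.5 to 192) in the same order. The other 8 transcripts together had 17.0 CPM (2.54 to 162), 23.5 CPM (9.36 to 43.1) and 123 CPM (66.6 to 246), so no SR1848 embryo reached the lowest DMSO embryo in them. In injected embryos with little GFP, ENSMUST00000223812 had 2.51 CPM in embryo 2 of experiment 1 and 213 to 2023 CPM in the others. Whether its rise follows the NR5A2 mRNA was not tested.

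Zfp410 (chromosome 12, 84316852 to 84343723) also had 1 transcript that was highest at the median in SR1848_NR5A2OE embryos. Unlike Zfp131, it fell at the gene level with SR1848. Its gene level had medians of 166 CPM (2.08 to 639) in SR1848_NR5A2OE embryos, 56.2 CPM in SR1848 embryos and 311 CPM in DMSO embryos, and the log2 fold change with NR5A2 mRNA was 1.74 (SE 0.15). ENSMUST00000221656, which the annotation marks as a target of nonsense-mediated decay, held 88.3% of its counts in SR1848_NR5A2OE embryos, 48.6% in SR1848 embryos and 7.85% in DMSO embryos. Its level was 137.4 CPM (2.08 to 628), 29.5 CPM (1.22 to 99.1) and 25.0 CPM (7.68 to 66.4) in the same order. The other 17 transcripts had 20.5 CPM (0 to 72.4), 26.7 CPM (6.11 to 62.6) and 283 CPM (167 to 393), so neither treated group overlapped with DMSO there. In injected embryos with little GFP, ENSMUST00000221656 had 2.08 CPM in embryo 2 of experiment 1 and 32.9 to 194 CPM in the others. Whether its rise follows the NR5A2 mRNA was not tested either.

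Zfp451 differed. This transcript, ENSMUST00000019861, held 82.9% of the gene's counts in SR1848_NR5A2OE embryos, 95.4% (8.36% to 99.4%) in SR1848 embryos and 27.5% in DMSO embryos. An 11876-base transcript, ENSMUST00000044455, held 5.33%, 1.74% and 68.5% in the same order. ENSMUST00000019861 had 4.57 to 80.5 CPM in SR1848 embryos 1 to 7 of experiment 1 and 56.6 to 346 CPM in embryos 9 to 17. In SR1848_NR5A2OE embryos of experiment 2 it had 15.0 to 149 CPM in embryos 9 to 32 and 6.24 to 30.8 CPM in embryos 33 to 39. The cause was not tested. Among 65 of the Zfp genes with a median of at least 20 CPM in each group, 8 had a transcript whose median share differed by at least 25 points between SR1848 and DMSO: Zfp131, Zfp410, Zfp451, Zfp600, Zfp638, Zfp709, Zfp930 and Zfp934. Between SR1848_NR5A2OE and SR1848 there were 2, Zfp410 and Zfp990. These were chosen after the values were seen and are a description, since kallisto divides reads between transcripts by a model. The authors' deposited table gives ENSMUST00000223812 a log2 fold change of 1.78 and ENSMUST00000221656 one of 2.28.

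**Figure D4:**
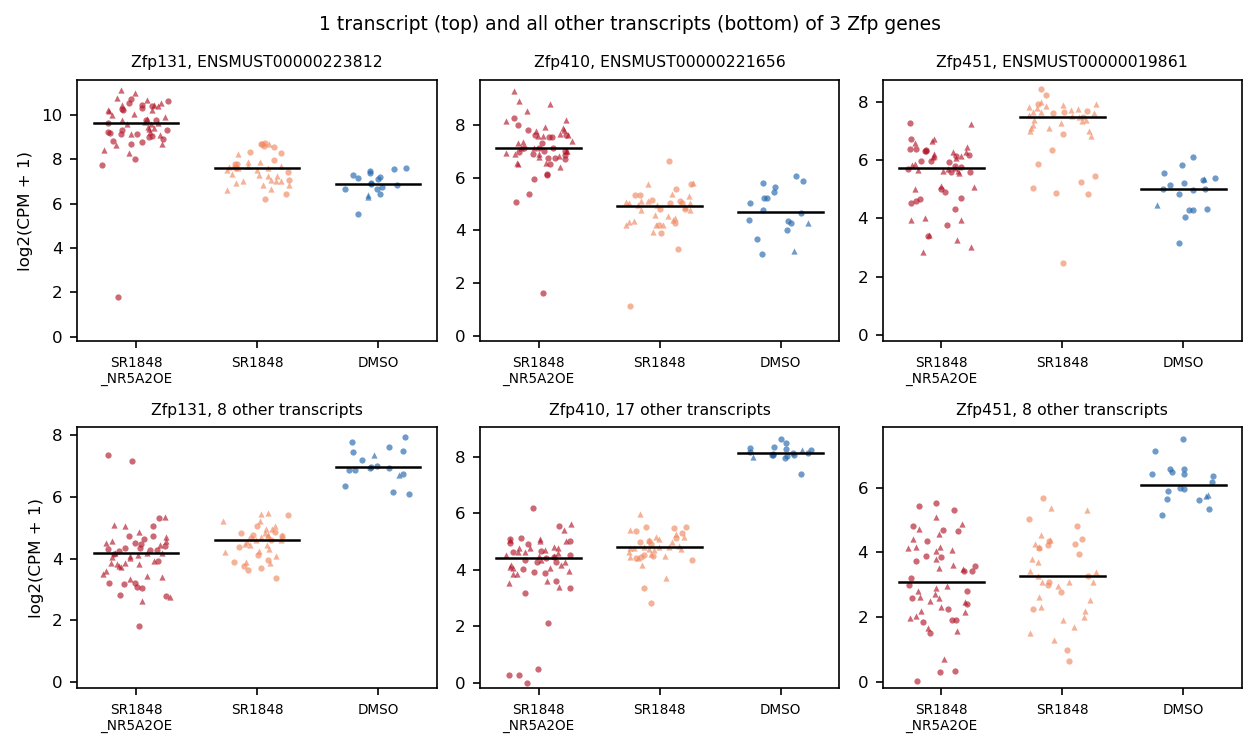
Levels per embryo, as log2(CPM + 1), of 1 transcript (top) and of all other transcripts (bottom) of Zfp131, Zfp410 and Zfp451, by group; circles are experiment 1, triangles experiment 2 and lines medians. For Zfp131 and Zfp410 the single transcript is highest at the median in SR1848_NR5A2OE embryos, and the other transcripts are highest in DMSO embryos, at medians of 123 and 283 CPM.

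The motif TCAAGGNCA, to which NR5A2 and related orphan receptors bind, was searched on both strands of promoters from 250 bases before to 50 bases after a gene's start (RefSeq, GRCm38.p6). No other motif was searched. A promoter was given for 182 of the 226 genes, and 2 of them held the motif (1.10%), against 1.86% of 27025 genes. They are shown because they are the only matches, with the motif in capitals, 5′ to 3′ on the gene's strand.
Zfp142, chr1:74587979-74588278, minus strand: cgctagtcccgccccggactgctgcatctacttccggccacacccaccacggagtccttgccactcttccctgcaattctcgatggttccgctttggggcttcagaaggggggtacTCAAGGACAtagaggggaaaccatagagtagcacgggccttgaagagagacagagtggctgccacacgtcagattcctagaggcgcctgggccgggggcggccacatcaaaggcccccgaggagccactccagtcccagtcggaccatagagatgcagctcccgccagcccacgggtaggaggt
Zfp414, chr17:33628842-33629141, plus strand: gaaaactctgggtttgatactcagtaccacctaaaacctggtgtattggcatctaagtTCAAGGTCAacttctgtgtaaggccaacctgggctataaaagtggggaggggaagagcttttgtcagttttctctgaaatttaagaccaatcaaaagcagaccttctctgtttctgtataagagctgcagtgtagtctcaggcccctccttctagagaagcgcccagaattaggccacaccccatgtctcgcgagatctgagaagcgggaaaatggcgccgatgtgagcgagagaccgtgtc
The match begins 134 bases before the start site in Zfp142 and 192 bases before it in Zfp414. Zfp142 had a median of 24.7 CPM (0.858 to 88.1) in SR1848_NR5A2OE embryos, 39.0 CPM (8.53 to 86.0) in SR1848 embryos and 39.0 CPM (25.2 to 78.8) in DMSO embryos. It did not pass the test with SR1848 (log2 fold change 0.11, SE 0.22) and fell with NR5A2 mRNA (−0.58, SE 0.15, adjusted p 0.000565, edgeR). Zfp414 had 5.56 CPM (0 to 10.7), 5.36 CPM (0 to 14.9) and 7.67 CPM (3.43 to 15.6) in the same order and passed neither test, at −0.44 (SE 0.25) with SR1848 and −0.05 (SE 0.18) with NR5A2 mRNA. Both genes were chosen for their promoters.

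Comparisons of SR1848_NR5A2OE and of DMSO with the same SR1848 embryos share those embryos, so the experiments were used apart. Genes called for SR1848 against DMSO in experiment 1 were looked up for SR1848_NR5A2OE against SR1848 in experiment 2, over 225 Zfp genes and 13470 genes in all. Of 99 Zfp genes lower with SR1848, 21 (21.2%) were higher with NR5A2 mRNA and 13 (13.1%) lower, against 23.9% and 9.75% of all such genes, with median log2 fold changes of 0.20 and 0.33. Of 67 Zfp genes higher with SR1848, 6 (8.96%) were higher with NR5A2 mRNA and 19 (28.4%) lower, against 9.11% and 23.2% of all such genes, with medians of −0.17 and −0.12. These shares lie near those of all genes.

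**Figure D5:**
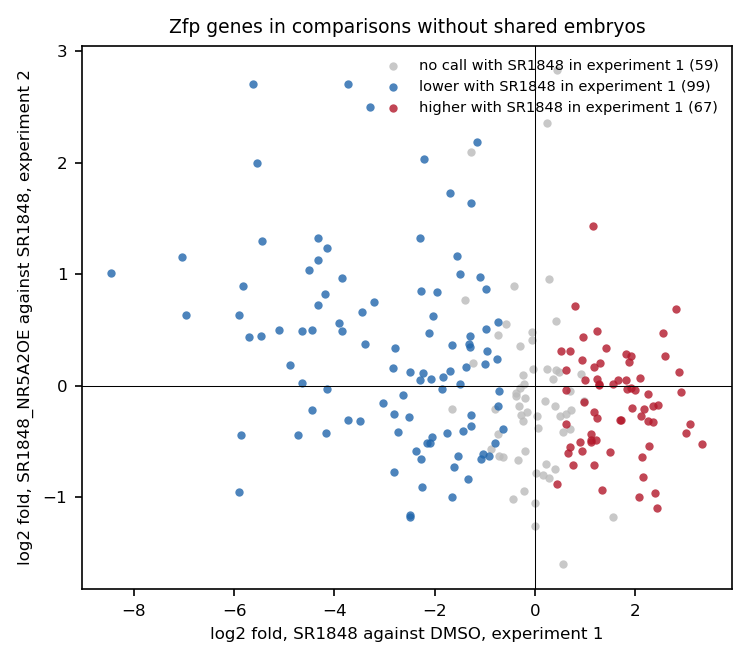
Log2 fold changes of 225 Zfp genes with SR1848 against DMSO in experiment 1 (horizontal axis) and with SR1848_NR5A2OE against SR1848 in experiment 2 (vertical axis), which share no embryo; each point is a gene, coloured by its call in experiment 1. The 99 blue genes have a median of 0.20 on the vertical axis and the 67 red genes one of −0.17, with TMM scaling.

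Set against DMSO, SR1848_NR5A2OE embryos had 104 Zfp genes lower and 75 higher, where 34.6% of all genes were lower and 42.5% higher (edgeR). The median log2 fold change was −0.41 over the Zfp genes and 0.32 over all genes. Relative log expression gave 117 lower and 53 higher, and maternal scaling 142 lower and 31 higher, with all-gene medians of −0.11 and −0.59. The largest falls were those of Zfp977 at −5.82 (SE 0.43) and Zfp346 at −5.18 (SE 0.55), and the largest rises those of Zfp41 at 2.81 (SE 0.28) and Zfp69 at 2.76 (SE 0.44). Zfp977 had a median of 0.504 CPM (0 to 16.1) in SR1848_NR5A2OE embryos and 103 CPM (68.5 to 233) in DMSO embryos, with no overlap. Zfp41 had 25.9 CPM (5.41 to 97.3) in SR1848_NR5A2OE embryos and 3.86 CPM (1.06 to 16.5) in DMSO embryos, with overlap.

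The change with SR1848 against DMSO was not called different between experiments for any of the 226 genes (interaction test, edgeR), nor was that of SR1848_NR5A2OE against DMSO. At an unadjusted p under 0.05 they were 7 and 5 genes of the 226. No other tool was run for this test. Over all genes 1 was called in each comparison. Only 2 DMSO embryos of experiment 2 entered these tests. For SR1848_NR5A2OE against SR1848 the change differed for Zfp91 and Zfp949, or 0.885% of the Zfp genes, against 1.60% of all genes. At an unadjusted p under 0.05 they were 32 of the 226 genes, beside 2532 of all 15097 genes (interaction test, edgeR).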

How the data were processed

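Single 2-cell embryos were sequenced as SmartSeq2 libraries. Per the submitters' processing notes, bcl2fastq, Trim Galore 0.6.2, kallisto 0.46.1, R 3.5.1 and DESeq2 1.32.0 were used, and the builds mm10 and hg19 are named, with no role stated for hg19. The deposited table holds kallisto's estimated counts per transcript, of which 26.3% are not whole (tolerance 1e-09). A second deposited table, from DESeq2 per the submitters' processing notes, holds log2 fold changes, p-values and a mean normalized signal per transcript. The authors' step that made each value is not otherwise recorded.

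Counts were summed by gene symbol and rounded. Of 119358 entries, 1835 (0.820% of counts) had no gene name and entered no test. Libraries under 1 in 5 of the median total, or 1 in 2 of the median genes detected, were left out as low, as were the 16 that go against their labels. The fit was edgeR 4.0.16 (R 4.3.3), a quasi-likelihood test with TMM scaling, filterByExpr and experiment as a term, Benjamini-Hochberg over 15097 genes, threshold 0.05. The script was tested on simulated data. Standard errors are the fold change over the root of F. The totals of the 114 libraries had a median of 4739877 counts, and counting error is small beside the spread between embryos except for genes near 0. Within each group, no pair of libraries agreed within sampling noise; pairs across groups were not compared.

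Proteins were translated from GENCODE M21 coding transcripts, since no protein table was given. A planned strict KRAB pattern missed known KRAB proteins, so a box with at least 8 of 10 fixed residues was used, chosen after seeing the data. Finger patterns were C, 2 to 5 residues, C, 12 residues, H, 3 to 5 residues, H. The named genes are the 10 most abundant per length, the 10 largest changes in each direction with the same sign in both experiments, the 3 role lists, and the genes at the 5 CPM limit. The genes and all lists were chosen with earlier results of these data known. Alternatives tried were other scalings, no filter, DESeq2 1.42.0, all or low libraries, each experiment alone, injected embryos with GFP, a replicate block, and the GENCODE pairing of transcripts. Single embryos were not left out in turn, since each group has over 5.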

Additional observations from a re-analysis of the deposited data

Results flagged for a closer look

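For 2 of the 226 genes, the change with SR1848_NR5A2OE against SR1848 differed between the experiments in an interaction test (edgeR quasi-likelihood test, Benjamini-Hochberg adjusted over 15097 genes). Zfp91, a ubiquitin ligase gene, had a median of 57.6 CPM in SR1848_NR5A2OE embryos and 36.8 CPM in SR1848 embryos of experiment 1, and 43.7 and 55.5 CPM in experiment 2. Its log2 fold change in experiment 1 minus that in experiment 2 was 0.713 (SE 0.198, adjusted p 0.0416). Zfp949, a KRAB gene, had a median of 2.55 CPM in SR1848_NR5A2OE embryos and 0.113 CPM in SR1848 embryos of experiment 1, and 2.06 and 1.35 CPM in experiment 2. Its difference was 2.72 (SE 0.728, adjusted p 0.0332).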

How the results depend on the processing

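Counts of Zfp genes called moved by more than 1.5 times in these cases, beside the replicate block given further on. With SR1848 against DMSO, 48 rose under relative log expression, 20 under maternal scaling and 45 in experiment 2 alone, against 74, and 166 fell under maternal scaling and 68 in experiment 2 alone, against 108. With SR1848_NR5A2OE against SR1848, 112 rose under maternal scaling, 34 with low libraries kept and 34 in experiment 2 alone, against 59. There 6 fell under maternal scaling, 15 in experiment 1 alone and 60 over injected embryos with GFP, against 36. With SR1848_NR5A2OE against DMSO, 31 rose under maternal scaling and 36 in experiment 2 alone, against 75, and 65 fell in experiment 2 alone, against 104. Experiment 2 holds 2 DMSO embryos; the cause of the other moves was not tested.

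Among the genes named by the fixed rule, directions reversed with SR1848 against DMSO under maternal scaling for Zfp451 (−0.66), Zfp598 (−0.55), Zfp609 (−0.95), Zfp655 (−0.97), Zfp687 (−0.74), Zfp703 (−1.02), Zfp706 (−0.12), Zfp708 (−0.25), Zfp979 (−0.17) and Zfp982 (−0.046), and for Zfp655 under relative log expression and DESeq2 (−0.16 each). With SR1848_NR5A2OE against SR1848 they reversed under maternal scaling for Zfp68 (0.11), Zfp830 (0.16), Zfp932 (0.29) and Zfp979 (0.13), over injected embryos with GFP for Zfp217 (−0.47) and Zfp296 (−0.82), and with all libraries as labelled for Zfp808 (0.015). Named genes with SR1848_NR5A2OE against DMSO reversed in none of these settings.

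Replicate numbers were shared between groups. The 65 same-numbered pairs had a median correlation of 0.04 (−0.50 to 0.53) and 1851 other pairs one of −0.0015 (−0.59 to 0.58). The numbers were therefore not used as pairs in the main fit. Whether they follow handling within a group was not tested. With the replicate block, 35 Zfp genes rose and 30 fell with SR1848_NR5A2OE against SR1848, and Zfp217 stood at −0.28. With the block 72 rose and 105 fell for SR1848 against DMSO, and 63 and 108 for SR1848_NR5A2OE against DMSO.

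Single embryos leave genes of a few CPM uncertain, and near copies share reads. Scaling sets the share of rises and falls, and no measure of total RNA per embryo was used here.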
